A study of Mus musculus with 12 samples.

Results

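The expression of 10 genes of eicosanoid and platelet-activating factor (PAF) metabolism was followed in mouse bone marrow derived macrophages (BMDMs). They were taken by name from a table of 54232 genes and are the cyclooxygenases Ptgs1 and Ptgs2, the prostaglandin synthases Ptges and Hpgds, the prostaglandin dehydrogenase Hpgd, the prostaglandin receptor Ptger4, the leukotriene genes Alox5, Alox5ap and Ltc4s, and the PAF hydrolase Pla2g7. They were chosen with earlier results of these data known. All 10 were in the table and passed the filter on low counts. The cells came from C57BL/6 mice, had been in culture for 5 days and were then kept for 24 h with or without tumor-conditioned medium (TCM). There were 6 groups of 2 libraries each. NS received neither TCM nor drug, and the groups NB9464 TCM and NBT3L TCM received medium of the neuroblastoma line of that name. Each of these had a counterpart that also received 500 nM R788, named R788 where there was no TCM, NB9464 TCM + R788, or NBT3L TCM + R788. R788 (fostamatinib) inhibits the tyrosine kinase Syk. NB9464 is a MYCN-amplified mouse line and NBT3L a line without that amplification, each used as the single source of its TCM. The study asked how medium from neuroblastoma cells shapes macrophages and how inhibition of Syk alters that. NB9464 TCM was collected in DMEM without serum after 48 h, whereas nothing is stated of how NBT3L TCM was prepared, what the NS and R788 cells were kept in, or what R788 was dissolved in. Differences in base medium or serum are therefore part of any comparison of TCM with NS. They may also be part of any comparison of NB9464 TCM with NBT3L TCM. The solvent of R788 may be part of any comparison with and without R788.

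Eicosanoids are lipid signals made from arachidonic acid, which phospholipases release from membranes. Cyclooxygenases, the constitutive Ptgs1 and the inducible Ptgs2, turn it into prostaglandin H2, from which Ptges makes prostaglandin E2 (PGE2) and Hpgds makes prostaglandin D2 (PGD2). Hpgd inactivates PGE2 by oxidation, and Ptger4 is a receptor through which PGE2 raises cyclic AMP in macrophages. In the other branch the lipoxygenase Alox5, with its membrane partner Alox5ap, makes leukotriene A4, and Ltc4s couples that to glutathione to give leukotriene C4. Pla2g7 is the secreted enzyme that hydrolyzes PAF and is known as a product of maturing macrophages. Transcript levels were measured here, not lipids or enzyme activity.

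Total counts were between 44977847 and 56449685 per library. The libraries are called SJ1 to SJ12 in the labels, where SJ1 and SJ2 are NS, SJ3 and SJ4 are NB9464 TCM, SJ5 and SJ6 are NBT3L TCM, SJ7 and SJ8 are R788, and SJ9 to SJ12 are the pairs with R788 in NB9464 TCM and then in NBT3L TCM. Library SJ8 of the R788 group had the highest total and the fewest genes with a count (16149, against 17275 or more in the others), and its pair was the least alike, with log2 differences between replicates whose SD was 0.469, against 0.293 to 0.331 in the other 5 pairs. All 8 macrophage markers examined, Csf1r and Adgre1 among them, were detected in every library. Of 7 mast cell markers, 4 had 0 counts throughout and the summed level of all 7 was between 0 and 23.8 normalized counts. Summed neutrophil markers were between 4355 and 6088 normalized counts in libraries without TCM and between 7552 and 10895 with TCM, mostly from S100a8 and S100a9. Of the other neutrophil markers, Ngp was between 504 and 1804 normalized counts and Camp between 177 and 366 over the 12 libraries. Ly6g did not exceed 4 counts, and Elane, Mpo and Retnlg did not exceed 92. Ppbp was the main source of a megakaryocyte and platelet sum of 623 to 1145 normalized counts in the 4 NBT3L TCM libraries, against 158 to 393 in the others. Summed fibroblast markers were between 659 and 836 normalized counts in NS and between 1459 and 1781 with R788, between 848 and 1008 in NB9464 TCM and between 1152 and 1419.5 when R788 was added, and between 1326 and 1394 in NBT3L TCM and between 2059.9 and 2206 when R788 was added. Neuroblastoma markers summed to at most 1.88 in NS, at most 23.6 with R788 alone and 25.8 to 86.6 with TCM. The part of other cells in the results that follow was not tested.

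With TCM, some of the 10 genes rose and others fell. In every one of the 8 libraries with TCM, Ptgs2, Ptges and Pla2g7 were above, and Ptgs1, Hpgds, Hpgd, Alox5, Alox5ap and Ltc4s below, all 4 libraries without TCM. Ptger4 alone overlapped. Over the 16281 genes that passed the filter on low counts, 24.8% had no overlap between these libraries (12.9% higher with TCM, 11.9% lower). By DESeq2, 8 of the 10 genes were called (adjusted p under 0.05) between NB9464 TCM and NS, 3 higher and 5 lower, where 34.1% of all genes tested were called (17.2% higher, 16.9% lower). Between NBT3L TCM and NS it was 9 of 10, 3 higher and 6 lower, where 35.3% of all genes were called (18% higher, 17.3% lower). The median log2 fold change of the 10 genes was -0.55 and -0.36 in these comparisons, against 0.02 and 0 over all genes tested. Since the 10 genes were chosen with earlier results of these data known, these counts describe them and are no test of the pathway. In these bulk libraries, fewer cells of a type and less RNA per cell cannot be told apart.

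**Figure D1:**
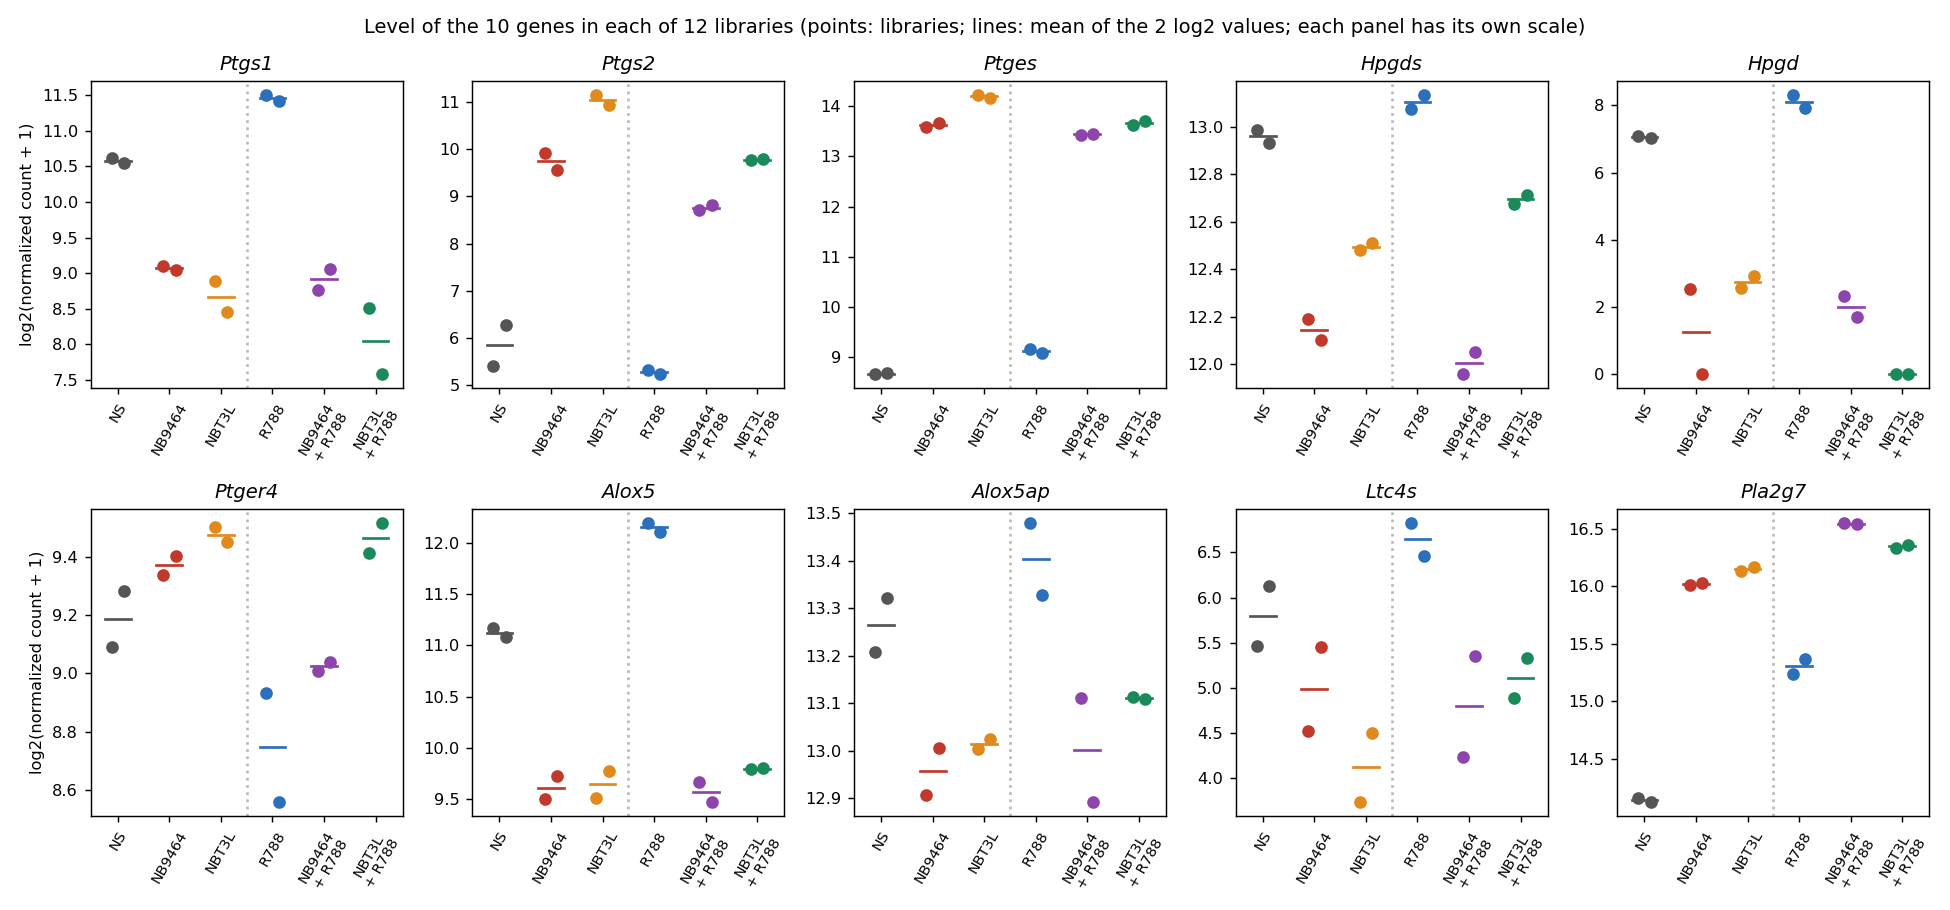
Each panel plots 1 of the 10 genes as log2(normalized count + 1) in the 12 libraries by group, with points for libraries and lines for the mean of the 2 log2 values, and with its own vertical scale. Ptgs2, Ptges and Pla2g7 lie higher in all 8 TCM libraries than in the 4 without TCM, and 6 of the other genes lie lower, Ltc4s only by a very small gap.

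Ptgs2 (ENSMUSG00000032487, chromosome 1, 150100031 to 150108227 on GRCm38), the inducible cyclooxygenase, was near the bottom of its range without TCM, at 41.3 and 76.8 normalized counts in the NS libraries. It reached 969 and 755 in NB9464 TCM and 2262 and 1967 in NBT3L TCM. The groups did not overlap, and the gene was highest in NBT3L TCM. The rise over NS was 14.6-fold in NB9464 TCM (log2 fold change 3.87 ± 0.23 SE, DESeq2 adjusted p = 1.81e-61) and 35.8-fold in NBT3L TCM (5.16 ± 0.23 SE, adjusted p = 2.92e-110). Ptges (ENSMUSG00000050737, chromosome 2, 30889471 to 30929863), the inducible PGE2 synthase that works downstream of Ptgs2, also rose in both media. It was at 406 and 409 normalized counts in NS, at 12301 and 12906 in NB9464 TCM and at 19129 and 18349 in NBT3L TCM. The fold changes over NS were 31.0 (log2 4.95 ± 0.077 SE) and 46.0 (log2 5.52 ± 0.077 SE), with DESeq2 adjusted p values too small to be held as a number and returned as 0. Both cyclooxygenase and synthase thus had non-overlapping groups, with NBT3L TCM above NB9464 TCM above NS.

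The start regions of this pair are shown because the genes rose together in both TCM groups. Each line gives 300 bases from RefSeq on GRCm38.p6, from 250 bases before the annotated start to 50 after it, 5′ to 3′ on the strand of the gene. Capitals mark matches, on either strand, to any of 7 sets of letters, whose matches did not overlap in the windows shown. They were TATAAA for the TATA box, GGGCGG for the GC box, CCAAT for the box of that name, TGANTCA for AP-1, TGACGTCA for CRE, TTNNGNAA for C/EBP, and for NF-kB the letters GGGA followed, after any 4 bases, by CC. The Ptges start is that of RefSeq and lies within the interval given above.
Ptgs2 (chr1:150099781-150100080, plus strand): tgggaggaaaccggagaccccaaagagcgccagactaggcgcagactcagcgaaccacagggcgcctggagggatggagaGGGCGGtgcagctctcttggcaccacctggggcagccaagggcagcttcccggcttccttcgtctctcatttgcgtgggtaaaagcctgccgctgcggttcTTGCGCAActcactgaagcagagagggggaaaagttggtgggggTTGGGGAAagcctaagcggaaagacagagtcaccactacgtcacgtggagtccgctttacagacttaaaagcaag
Ptges (chr2:30903248-30903547, minus strand): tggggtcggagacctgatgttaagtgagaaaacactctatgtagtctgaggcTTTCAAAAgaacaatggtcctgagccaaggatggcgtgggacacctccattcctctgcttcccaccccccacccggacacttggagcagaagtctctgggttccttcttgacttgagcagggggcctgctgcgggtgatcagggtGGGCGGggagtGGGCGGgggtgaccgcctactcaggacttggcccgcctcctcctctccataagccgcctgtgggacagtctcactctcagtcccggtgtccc
The Ptgs2 window held the C/EBP letters at 2 places, beginning 69 and 25 bases before the start, and the GC box 170 bases before it. The Ptges window held the GC box at 2 places, 53 and 42 bases before the start, and the C/EBP letters 198 bases before it. These letters are common, since of 32851 windows of the same length 35.7% held the GC box and 40.7% the C/EBP letters. The matches are a description of the sequence, and binding was not measured.

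Ptgs1 (ENSMUSG00000047250, chromosome 2, 36230426 to 36252272), the constitutive cyclooxygenase, moved the other way. Its level was 1571 and 1489 normalized counts in NS, 549 and 527 in NB9464 TCM, and 473 and 350 in NBT3L TCM. All 4 TCM libraries lay below NS, by 2.84-fold for NB9464 TCM (log2 -1.51 ± 0.21 SE, DESeq2 adjusted p = 2.28e-11) and 3.73-fold for NBT3L TCM (log2 -1.90 ± 0.22 SE, adjusted p = 3.67e-17).

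The exchange of cyclooxygenases was seen also on a scale that allows genes to be set side by side, the per-length level (counts divided by gene length and scaled to a constant sum per library, or TPM). Ptgs2 made up 2.18% and 4.19% of the summed per-length level of Ptgs1 and Ptgs2 in the NS libraries. Its share was 59.9% and 54.9% in NB9464 TCM and 80.2% and 82.7% in NBT3L TCM. Ptgs1 was therefore the more abundant cyclooxygenase transcript in NS, and Ptgs2 in either TCM without R788. For the enzymes that use the shared prostaglandin H2, Ptges made up 7.55% and 7.86% of the sum of Ptges and Hpgds in NS, 81.2% and 82.8% in NB9464 TCM, and 84.6% and 83.7% in NBT3L TCM. These shares describe transcripts only and were not tested.

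**Figure D2:**
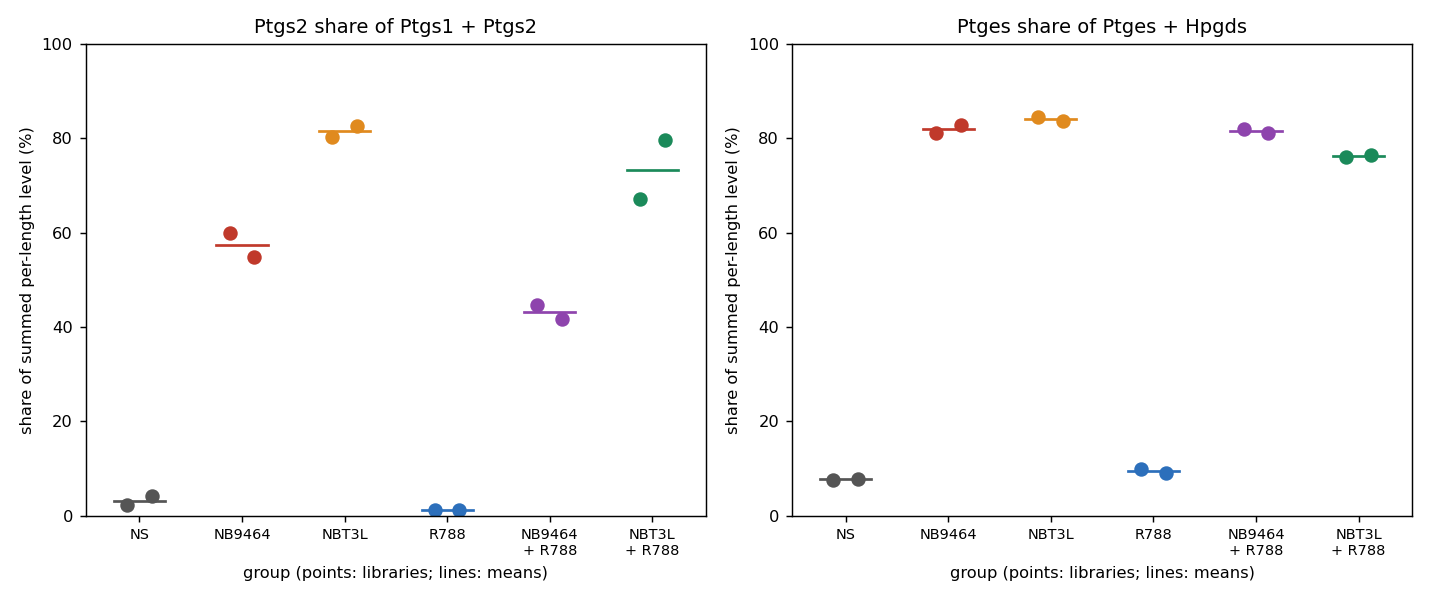
The share of Ptgs2 in the summed per-length level of Ptgs1 and Ptgs2 (left) and of Ptges in that of Ptges and Hpgds (right), in percent, is plotted for each library by group, with lines for group means. Both shares are under 10% in the 4 libraries without TCM and above 40% in all 8 with TCM, and with R788 the Ptgs2 share lies lower in each medium.

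Hpgds (ENSMUSG00000029919, chromosome 6, 65117293 to 65144908), the hematopoietic PGD2 synthase, fell by less than Ptgs1. It was at 8123 and 7828 normalized counts in NS, 4667 and 4397 in NB9464 TCM, and 5712 and 5837 in NBT3L TCM. The fall was 1.76-fold in NB9464 TCM (log2 -0.82 ± 0.066 SE, DESeq2 adjusted p = 1.33e-33) and 1.38-fold in NBT3L TCM (log2 -0.47 ± 0.066 SE, adjusted p = 1.67e-11). Of the members of the prostaglandin branch that fell, only this abundant gene stayed within a factor of 2 of its NS level in both media.

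Hpgd (ENSMUSG00000031613, chromosome 8, 56294585 to 56321043), which breaks prostaglandins down, nearly disappeared from the libraries with TCM. The NS libraries held 145 and 136 reads of it. NB9464 TCM held 5 and 0 reads, and NBT3L TCM 4 and 6. No TCM library exceeded 6 reads, with or without R788, so levels among the TCM groups rest on a handful of reads. Relative to NS it was lower by DESeq2 in NB9464 TCM (log2 -5.81 ± 0.83 SE, adjusted p = 2.12e-11) and in NBT3L TCM (log2 -4.53 ± 0.69 SE, adjusted p = 5.08e-10), by an amount that is uncertain at these counts.

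Ptger4 (ENSMUSG00000039942, chromosome 15, 5206661 to 5244187) was the member that was not called in either TCM. Its normalized counts were 545 and 623 in NS, 647 and 677 in NB9464 TCM, and 725 and 699 in NBT3L TCM. The 95% interval of the log2 difference from NS was -0.16 to 0.52 in NB9464 TCM (DESeq2 adjusted p = 0.486) and -0.06 to 0.63 in NBT3L TCM (adjusted p = 0.21). On the TPM scale the order was reversed, with a mean of 5.59 in NS against 5.32 and 5.20 in the TCM groups. Gene length is the same in all libraries, so the reversal comes from scaling to a constant sum per library. Ptger4 shares 82 exon bases with Ttc33 on the opposite strand, and whether strand was used in counting was not stated.

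**Figure D3:**
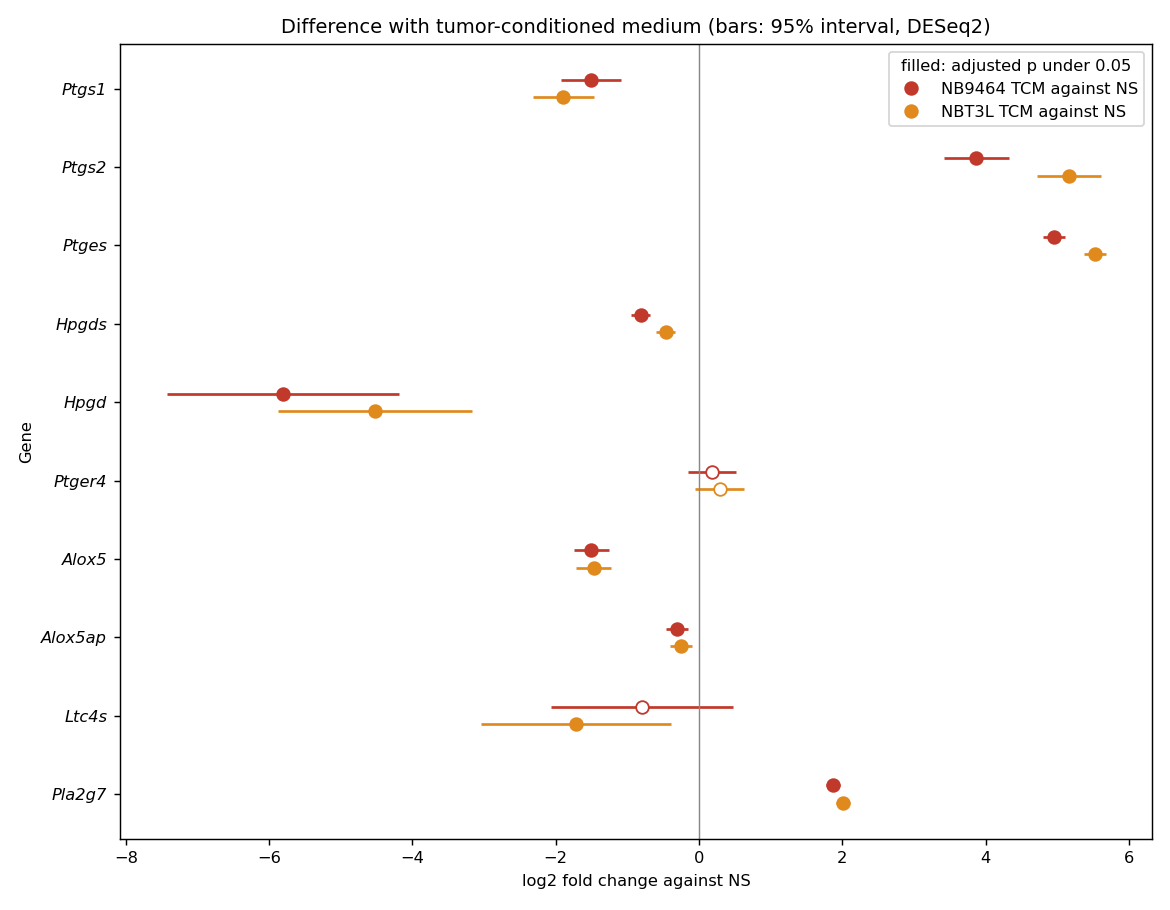
Log2 fold changes of the 10 genes between each TCM and NS are plotted with 95% intervals from DESeq2, filled where the adjusted p was under 0.05. Ptgs2, Ptges and Pla2g7 lie to the right of 0 in both media, and the points for Ptger4 and, in NB9464 TCM, Ltc4s are open.

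In the leukotriene branch, Alox5 (ENSMUSG00000025701, chromosome 6, 116410077 to 116461178), the lipoxygenase that starts leukotriene synthesis, was at 2294 and 2160 normalized counts in NS. It was at 723 and 844 in NB9464 TCM and at 731 and 874 in NBT3L TCM. The libraries of both media overlapped with each other and lay below NS, 2.84-fold lower in NB9464 TCM (log2 -1.51 ± 0.12 SE, DESeq2 adjusted p = 2.67e-32) and 2.77-fold lower in NBT3L TCM (log2 -1.47 ± 0.13 SE, adjusted p = 2.32e-30). Alox5ap (ENSMUSG00000060063, chromosome 5, 149264767 to 149288153), the protein that presents arachidonic acid to Alox5, was abundant and changed little, from 9455 and 10229 normalized counts in NS to 7680.1 and 8222 in NB9464 TCM and 8206 and 8331 in NBT3L TCM. Its falls of 1.24-fold (log2 -0.31 ± 0.080 SE, adjusted p = 0.000576) and 1.19-fold (log2 -0.25 ± 0.080 SE, adjusted p = 0.00624) passed the test, but the latter was lost without NS library SJ2 (adjusted p = 0.115) or NBT3L TCM library SJ5 (0.0608). Over its alternatives the adjusted p of that fall was between 0.000711 and 0.115.

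Ltc4s (ENSMUSG00000020377, chromosome 11, 50236461 to 50238616), the enzyme of leukotriene C4 synthesis, was the rarest leukotriene gene, at 43.2 and 69.2 normalized counts in NS, 22.0 and 42.7 in NB9464 TCM and 12.4 and 21.6 in NBT3L TCM. The difference from NS was not called in NB9464 TCM (log2 -0.80, 95% interval -2.07 to 0.48, DESeq2 adjusted p = 0.39). It was called lower in NBT3L TCM (log2 -1.72 ± 0.68 SE, adjusted p = 0.0334), a call lost without SJ1, SJ2 or SJ5 (adjusted p 0.0559, 0.258 and 0.229) and in a fit of only these 2 groups (0.0507), in a range of 0.03 to 0.258 over its alternatives.

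The start regions of Ptgs1 and Alox5 are shown for comparison with those above, since both genes fell with TCM and, as described further on, rose with R788 in its absence. Capitals mark the same letters as before.
Ptgs1 (chr2:36230176-36230475, plus strand): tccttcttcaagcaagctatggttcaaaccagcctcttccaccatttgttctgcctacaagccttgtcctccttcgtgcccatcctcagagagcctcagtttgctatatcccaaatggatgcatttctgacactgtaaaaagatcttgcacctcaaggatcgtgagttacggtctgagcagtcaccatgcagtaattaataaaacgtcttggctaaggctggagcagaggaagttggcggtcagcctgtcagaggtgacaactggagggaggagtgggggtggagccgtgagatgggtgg
Alox5 (chr6:116461129-116461428, minus strand): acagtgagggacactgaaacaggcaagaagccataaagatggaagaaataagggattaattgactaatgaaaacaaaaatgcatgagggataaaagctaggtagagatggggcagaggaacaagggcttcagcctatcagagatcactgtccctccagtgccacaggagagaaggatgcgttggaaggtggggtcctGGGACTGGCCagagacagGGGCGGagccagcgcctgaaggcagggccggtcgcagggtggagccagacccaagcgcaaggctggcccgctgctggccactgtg
None of the 7 sets of letters was found in the Ptgs1 window. The Alox5 window held the GC box 35 bases before the start and the NF-kB letters 53 bases before it, the latter found in 20.7% of all windows. That a set of letters is missing from this stretch says nothing about the factor named for it.

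Pla2g7 (ENSMUSG00000023913, chromosome 17, 43568098 to 43612201), the PAF hydrolase, was the most abundant of the 10 genes per length in every group but NS, where its mean TPM of 398 lay below the 441 of Alox5ap. Its NS libraries had 18345 and 17912 normalized counts, those of NB9464 TCM 66048 and 67070.1, and those of NBT3L TCM 71900 and 73493. It rose 3.67-fold with NB9464 TCM (log2 1.88 ± 0.050 SE) and 4.01-fold with NBT3L TCM (log2 2.004 ± 0.050 SE), with DESeq2 adjusted p values returned as 0. The antisense gene 1700071M16Rik shares 319 exon bases with it and held 68 to 663 counts per library, so reads exchanged between them would be a small part of the Pla2g7 level.

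R788 without TCM raised members of both branches. Against NS, 5 of the 10 genes were called, 4 higher and 1 lower, where 26.6% of all genes tested were called (11.6% higher, 15% lower). Alox5 was at 4689 and 4417 normalized counts with R788, above both NS libraries and the highest level of any group, a 2.04-fold rise (log2 1.03 ± 0.12 SE, DESeq2 adjusted p = 3.27e-16). Pla2g7 was at 38652 and 42364, a 2.23-fold rise (log2 1.16 ± 0.050 SE, adjusted p = 9.79e-118). Ptgs1 was at 2897 and 2744, a 1.84-fold rise (log2 0.88 ± 0.21 SE, adjusted p = 0.000227). For these 3 genes both R788 libraries lay above both NS libraries.

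Smaller differences with R788 alone were less secure. Ptges rose 1.37-fold, to 575 and 543 normalized counts (log2 0.46 ± 0.086 SE, DESeq2 adjusted p = 1.33e-06). This call was lost in a fit of only these 2 groups (adjusted p = 0.127), within a range of 1.1e-06 to 0.127 over its alternatives. Ptger4 was the member called lower, at 488 and 376 normalized counts (log2 -0.44 ± 0.18 SE, adjusted p = 0.0456). The call was kept in 1 of 12 fits that left out a library, and its adjusted p without library SJ8 was 0.349, the highest of a range that began at 0.00722. Ptgs2 was at 39.1 and 36.7 normalized counts with R788, below both NS libraries, and was not called (log2 -0.64, 95% interval -1.18 to -0.10, adjusted p = 0.0634), but was called with a stricter count filter (0.045) and without SJ1 (0.00443), in a range of 0.00443 to 0.862. Hpgd was at 316 and 241 normalized counts against 136 and 129 in NS and was not called either (log2 1.07, 95% interval 0.05 to 2.09, adjusted p = 0.112), although a fit of only these 2 groups called it (0.012, in a range of 0.012 to 0.435). Alox5ap was not called (log2 0.14, adjusted p = 0.189), but was called higher without SJ8 (0.039, in a range of 0.039 to 0.618).

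In the presence of TCM, R788 lowered the inducible pair. In NB9464 TCM, 3 of the 10 genes were called, 1 higher and 2 lower, where 14.5% of all genes were called (5.79% higher, 8.7% lower). In NBT3L TCM it was 5, 2 higher and 3 lower, where 12.6% of all genes were called (5.33% higher, 7.24% lower). Ptgs2 was at 416 and 447 normalized counts in NB9464 TCM + R788 and at 871 and 878 in NBT3L TCM + R788. By DESeq2 the log2 change was -0.9999 ± 0.20 (SE, adjusted p = 9.25e-06) in the former and -1.27 ± 0.19 (SE, adjusted p = 1.7e-09) in the latter. Even so, Ptgs2 with TCM and R788 stayed above all libraries without TCM.

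Ptges with R788 was at 10989 and 11189 normalized counts in NB9464 TCM and at 12719 and 13284 in NBT3L TCM. In NBT3L TCM it fell by 0.53 on the log2 scale (SE 0.059, DESeq2 adjusted p = 6.71e-17). In NB9464 TCM it fell by 0.18 (SE 0.060, adjusted p = 0.0145), a call lost by edgeR (adjusted p = 0.0552) and without SJ4 (0.194), SJ9 (0.176) or SJ10 (0.089), in a range of 0.00276 to 0.194. Per length, Ptges remained the larger share of Ptges and Hpgds with R788, 81.9% and 81.2% in NB9464 TCM and 76.1% and 76.4% in NBT3L TCM. The Ptgs2 share of the cyclooxygenases was 44.7% and 41.6% in NB9464 TCM + R788 and 67.1% and 79.6% in NBT3L TCM + R788, below the libraries of the same TCM without R788. Ptgs1 was thus the more abundant cyclooxygenase transcript in NB9464 TCM + R788.

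Pla2g7 was raised by R788 in each medium and was highest in the combination, at 96198 and 95162 normalized counts in NB9464 TCM + R788 and 82684 and 84039 in NBT3L TCM + R788. By DESeq2 it rose with R788 by 0.52 ± 0.049 on the log2 scale in NB9464 TCM (SE, adjusted p = 2.07e-24) and by 0.20 ± 0.049 in NBT3L TCM (SE, adjusted p = 0.000862). The latter was lost without SJ5 (adjusted p = 0.0556) or SJ12 (0.0548), the highest values of a range that began at 5.27e-17. Hpgds was called higher with R788 in NBT3L TCM, at 6543 and 6714 normalized counts (log2 0.20 ± 0.066 SE, adjusted p = 0.0218). That call was lost by edgeR (adjusted p = 0.0537) and without any of the 4 libraries compared, where the adjusted p was between 0.119 and 0.234 in an overall range of 0.00311 to 0.234.

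For Hpgd, called lower with R788 in NBT3L TCM (DESeq2 adjusted p = 0.0176), the call rests on 4 and 6 reads against 0 and 0. The call sets no bound on the fall, which was 1.85-fold against 3 reads per library, leaving out counting error of the 4 and 6 reads. It was lost with halved counts (adjusted p = 0.0913) and without SJ6, SJ11 or SJ12 (0.0672, 0.154 and 0.163), in a range of 0.0139 to 0.163. Alox5 and Ptgs1, which were among the 4 members raised by R788 without TCM, were not called with R788 in either TCM. Alox5 was at 810 and 711 normalized counts in NB9464 TCM + R788 and at 887 and 890.3 in NBT3L TCM + R788, with 95% intervals of the log2 difference of -0.29 to 0.21 and -0.11 to 0.40. Ptgs1 was at 436 and 531 and at 363 and 191, with intervals of -0.58 to 0.27 and -1.01 to -0.13. In NBT3L TCM the Ptgs1 fall (log2 -0.57, adjusted p = 0.0653) was called without SJ6 (0.0383) or SJ11 (2.87e-05) and with a stricter count filter (0.041), within a range of 2.87e-05 to 0.75. Alox5ap, Ltc4s and Ptger4 were not called with R788 in either TCM.

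**Figure D4:**
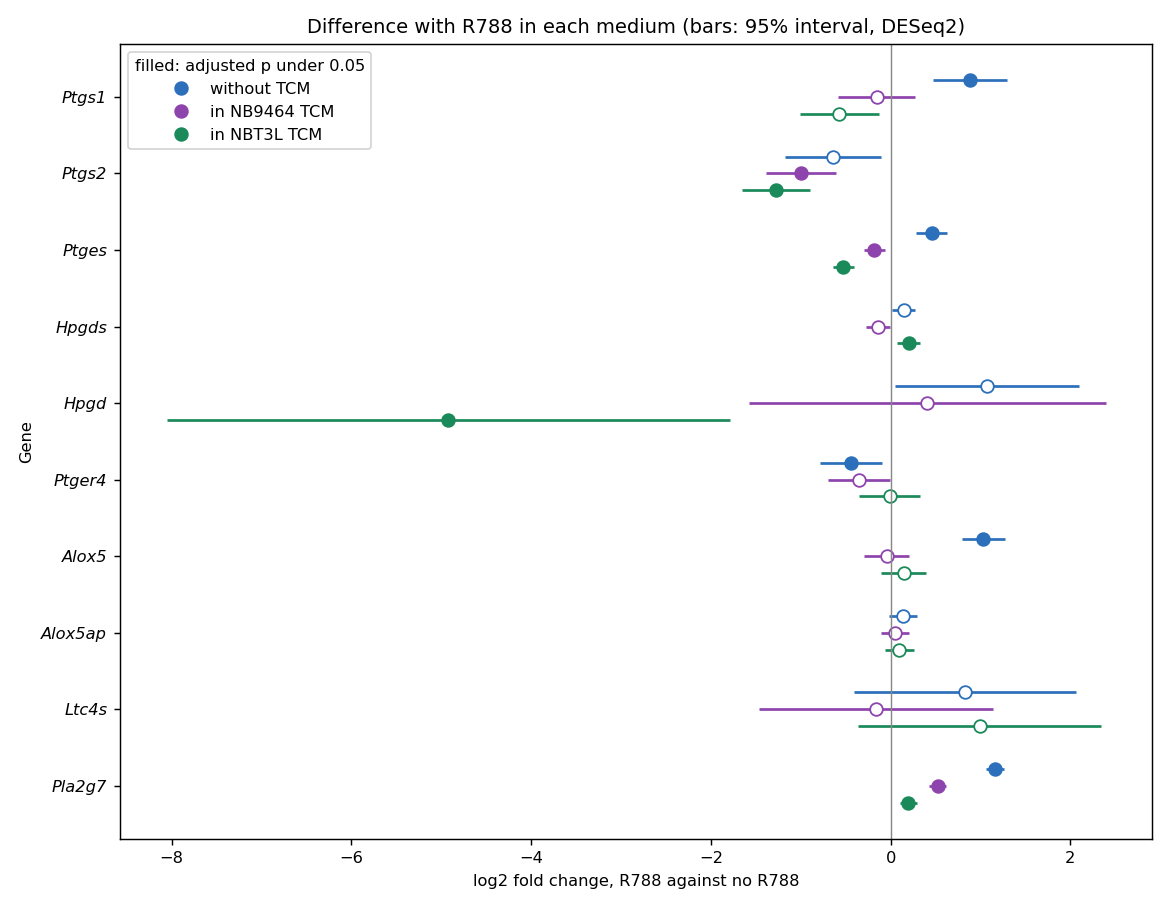
Log2 fold changes of the 10 genes between libraries with and without R788 are plotted for each medium with 95% intervals from DESeq2, filled where the adjusted p was under 0.05. Ptgs1, Ptges and Alox5 lie to the right of 0 without TCM. Ptges and Ptgs1 lie to the left in both TCM, where the points of Ptgs1 are open. The long bar of Hpgd in NBT3L TCM belongs to a group with 0 reads, for which the fitted value is no bound.

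Whether the R788 effect itself differed between media was tested with interaction contrasts. Between NB9464 TCM and no TCM, 5 of the 10 genes were called, all lower in NB9464 TCM, where 12.5% of all genes were called (6.22% higher, 6.26% lower). Between NBT3L TCM and no TCM it was also 5, all lower in NBT3L TCM, where 10.1% of all genes were called (5.17% higher, 4.96% lower). Both contrasts use the same 4 libraries without TCM. For Alox5 the log2 fold change with R788 was lower by 1.07 in NB9464 TCM (-1.07 ± 0.18 SE, adjusted p = 5.15e-08 by DESeq2) and by 0.89 in NBT3L TCM (-0.89 ± 0.18 SE, adjusted p = 1.59e-05). For Ptgs1 the difference was -1.04 ± 0.30 (SE, adjusted p = 0.00704) and -1.45 ± 0.31 (SE, adjusted p = 6.85e-05), and the former was lost without SJ9 (adjusted p = 0.0647). Ptges differed by -0.64 ± 0.11 (SE, adjusted p = 4.87e-08) and -0.98 ± 0.10 (SE, adjusted p = 1.07e-18), and Pla2g7 by -0.64 ± 0.070 (SE, adjusted p = 1.52e-17) and -0.96 ± 0.070 (SE, adjusted p = 2.61e-40). Hpgds differed in NB9464 TCM alone by the test (-0.29 ± 0.094 SE, adjusted p = 0.0187), a call lost by edgeR (0.0608), in a fit of only the groups concerned (0.0765) and without SJ2, SJ3, SJ8 or SJ9 (0.145, 0.135, 0.0535 and 0.16). Hpgd was called in NBT3L TCM (adjusted p = 0.0051), where the combination has 0 reads and the fitted difference is no bound, and the call was lost without SJ11 (0.0644) or SJ12 (0.0792). The R788 effect on Ptgs2 was not shown to differ from that without TCM, with 95% intervals of the difference of -1.02 to 0.30 in NB9464 TCM and -1.29 to 0.02 in NBT3L TCM, although the latter was called without SJ2 (adjusted p = 0.0315, in a range of 0.0315 to 0.748).

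The media were then compared with each other. Between NB9464 TCM and NBT3L TCM, 3 of the 10 genes were called, all lower in NB9464 TCM, where 9.4% of all genes were called (3.69% higher, 5.72% lower). Ptgs2 differed by -1.29 ± 0.19 on the log2 scale (SE, DESeq2 adjusted p = 1.04e-09), Ptges by -0.57 ± 0.059 (SE, adjusted p = 1.07e-19) and Hpgds by -0.35 ± 0.067 (SE, adjusted p = 5.06e-06). All 3 calls held under edgeR and without any single library, and that of Ptgs2 also against a minimum change of 2-fold. Pla2g7 was lower by 0.13 in NB9464 TCM (log2 -0.13 ± 0.049 SE) and was not called (adjusted p = 0.068). Its call changed without SJ7 (log2 -0.125) or SJ8 (log2 -0.126). These are the libraries of the R788 group, which are not compared here. They enter through the shared fit, by the spread, the scaling and the genes tested.

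With R788 present in both media, 5 of the 10 genes were called between NB9464 TCM + R788 and NBT3L TCM + R788, 2 higher and 3 lower, where 9.62% of all genes were called (3.53% higher, 6.09% lower). Ptgs2 (log2 -1.02 ± 0.20 SE, DESeq2 adjusted p = 9.48e-06) and Hpgds (log2 -0.69 ± 0.067 SE, adjusted p = 9.31e-23) were lower with NB9464 TCM, and both calls held under edgeR and without any single library. Ptges was lower as well (log2 -0.23 ± 0.060 SE, adjusted p = 0.00246), and Ptgs1 (log2 0.81 ± 0.22 SE, adjusted p = 0.00526) and Pla2g7 (log2 0.20 ± 0.049 SE, adjusted p = 0.00116) were higher with NB9464 TCM. These 3 calls each failed without 1 of the 4 libraries compared: Ptges without SJ9 (adjusted p = 0.0858) or SJ12 (0.135), Ptgs1 without SJ10 (0.128) or SJ12 (0.323), and Pla2g7 without SJ9 (0.0532) or SJ11 (0.0732). Ptger4 was not called (log2 -0.44, adjusted p = 0.089), but was called lower with NB9464 TCM without SJ7 (0.0494) or SJ8 (0.0442), in a range of 0.0442 to 0.44.

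The R788 effect differed between the TCM for 3 of the 10 genes, 2 higher and 1 lower in NB9464 TCM, where 0.706% of all genes were called (0.283% higher, 0.424% lower). These were Ptges (0.34 ± 0.084 SE, DESeq2 adjusted p = 0.0116), Pla2g7 (0.33 ± 0.070 SE, adjusted p = 0.00119) and Hpgds (-0.34 ± 0.094 SE, adjusted p = 0.0436). None of the 3 was called by edgeR (adjusted p = 0.214, 0.0576 and 0.216), and each was lost without single libraries, so a difference between the media is not secure at 2 libraries per group.

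Taking the order of group means, Alox5, Alox5ap, Ptgs1, Hpgds, Hpgd and Ltc4s were all highest with R788 alone and next highest in NS. Of these, only Alox5 and Ptgs1 were called between R788 and NS. Hpgds (log2 0.14, DESeq2 adjusted p = 0.0804) and Ltc4s (log2 0.83, adjusted p = 0.363) were not, nor were Alox5ap and Hpgd, as given above. Below NS in this order, the 4 TCM groups of Ptgs1 overlapped each with the next, as did NBT3L TCM, NB9464 TCM and NB9464 TCM + R788 for Alox5. Ptgs2 and Ptges had the same order from the top, NBT3L TCM, NBT3L TCM + R788, NB9464 TCM and NB9464 TCM + R788, where the second and the third group overlapped for both genes. Pla2g7 had 6 groups without overlap, from NS at the bottom to NB9464 TCM + R788 at the top. 

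The rest of the pathway was described with a list of 60 further genes for the release of arachidonic acid, the other synthases, transport, breakdown and receptors, of which 48 passed the filter on low counts. This list too was chosen with earlier results of these data known. Between NB9464 TCM and NS 27 of the 48 were called, 19 higher and 8 lower, with a median log2 fold change of 0.17. Over all genes tested, 34.1% were called in that comparison (17.2% higher, 16.9% lower). Between NBT3L TCM and NS 29 of the 48 were called, 19 higher and 10 lower, with a median of 0.10, where 35.3% of all genes were called (18% higher, 17.3% lower). Of 6 genes for transport and breakdown of prostaglandins, 5 were called higher in each TCM, where 17.2% and 18% of all genes were called higher, and the other, Ptgr2, was called lower in NBT3L TCM. Slco2a1, a prostaglandin transporter and 1 of these 5, had 0 reads in NS and a mean of 20.8 normalized counts in NB9464 TCM and 25.8 in NBT3L TCM. Of the 10 tested genes for release of arachidonic acid, 2 were called higher and 3 lower in each TCM, the former close to the share over all genes given above. Other prostanoid receptors had 2 of 5 called higher and none lower, and leukotriene receptors 1 of 3 higher in each TCM, with 1 lower in NB9464 TCM and 2 in NBT3L TCM.

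Ltb4r1, a receptor of leukotriene B4, had the largest change of the named genes of the list. It was at 124 and 129 normalized counts in NS, 768 and 811 in NB9464 TCM and 875 and 1024 in NBT3L TCM, or higher by log2 2.64 ± 0.30 (SE, adjusted p = 1.13e-17 by DESeq2) and 2.91 ± 0.30 (SE, adjusted p = 2.83e-21). Mgst2, a microsomal glutathione transferase that can also make leukotriene C4, rose from 358 and 401 normalized counts to 1940 and 2073 in NB9464 TCM and 1557 and 1575 in NBT3L TCM (log2 2.40 and 2.05, adjusted p = 1.99e-67 and 2.32e-48). Its relative Mgst3 was lower in both, with log2 -1.79 ± 0.15 (SE, adjusted p = 1.31e-32) in NB9464 TCM and -1.73 ± 0.15 (SE, adjusted p = 2.33e-30) in NBT3L TCM. Transcripts of enzymes able to make leukotriene C4 therefore moved in different directions, Mgst2 up and Ltc4s down or not called.

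Pla2g16, a phospholipase of adipose and other tissues, fell from 290.2 and 291 normalized counts in NS to 70.8 and 66.0 in NB9464 TCM and 47.0 and 32.5 in NBT3L TCM (log2 -2.09 and -2.88, DESeq2 adjusted p = 8.88e-06 and 1.62e-09). Dpep2, a dipeptidase that converts leukotriene D4 to leukotriene E4, fell in NBT3L TCM (log2 -1.88 ± 0.22 SE, adjusted p = 4.27e-16) and was also the named gene with the largest difference between the media, higher in NB9464 TCM than in NBT3L TCM (log2 1.36 ± 0.22 SE, adjusted p = 7.5e-08). The annotation holds Dpep2 as 2 overlapping gene entries, so its reads may be split. Between the media, 7 of the 48 passed the test, and of these 3 were higher in NB9464 TCM and 4 were lower. Over all genes tested, 9.4% were called (3.69% higher, 5.72% lower). Apart from Dpep2, the named genes were Fam213b, a prostamide and prostaglandin F synthase (log2 -0.91 ± 0.14 SE, adjusted p = 4.31e-09), Cyp4f18, which hydroxylates leukotriene B4 (log2 0.74 ± 0.19 SE, adjusted p = 0.00209), and Cysltr1, a receptor of cysteinyl leukotrienes (log2 -0.64 ± 0.12 SE, adjusted p = 3.88e-06).

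With R788 alone, 18 of the 48 genes were called, 11 higher and 7 lower, where 26.6% of all genes were called (11.6% higher, 15% lower). The median log2 fold change of the 48 was 0.16, or 0.13 with 2 genes that had no read in NS set to their bound. Of the PGE2 receptors, Ptger2 and Ptger3 rose, whereas Ptger4 was called lower as given above. Ptger2, which like Ptger4 raises cyclic AMP, was at 575 and 624 normalized counts in NS and 1821 and 1887 with R788 (log2 1.63 ± 0.11 SE, DESeq2 adjusted p = 7.7e-48). Ptger3 was at 116 and 80.6 in NS and at 268 and 561 in the R788 libraries, the higher of which was SJ8 (log2 2.07 ± 0.46 SE, adjusted p = 6.46e-05). Pla2g5, a secreted phospholipase, fell (log2 -1.52 ± 0.28 SE, adjusted p = 1.05e-06), and Fam213b rose (log2 1.27 ± 0.14 SE, adjusted p = 1.35e-17).

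With R788 in NB9464 TCM 10 of the 48 genes were called, 6 higher and 4 lower, and in NBT3L TCM 9, 4 higher and 5 lower, beside 14.5% and 12.6% of all genes. Pla2g4a, the cytosolic phospholipase that releases arachidonic acid, was lower with R788 in both, from 3926 and 3935 to 2720.4 and 2836 normalized counts in NB9464 TCM (log2 -0.50 ± 0.096 SE, DESeq2 adjusted p = 4.2e-06) and from 3822 and 3931 to 2781 and 2926 in NBT3L TCM (log2 -0.44 ± 0.096 SE, adjusted p = 8.38e-05). Fam213b was higher with R788 in both (log2 0.52, adjusted p = 0.00223, and log2 0.70, adjusted p = 1.19e-05), as was the epoxide hydrolase Ephx1 (log2 0.44, adjusted p = 0.0301, and log2 0.60, adjusted p = 0.00203). Dpep2 was lower in NB9464 TCM (log2 -0.60, adjusted p = 0.0323) and Mgst2 in NBT3L TCM (log2 -0.59, adjusted p = 0.000135). Between the media with R788, 12 of the 48 passed, 4 higher in NB9464 TCM + R788 and 8 lower. Over all genes tested, 9.62% were called (3.53% higher, 6.09% lower). The 12 were led by Fam213b (log2 -1.09 ± 0.14 SE, DESeq2 adjusted p = 5.2e-13), Dpep2 (log2 0.78 ± 0.23 SE, adjusted p = 0.0089), Pafah1b3, a subunit of an intracellular PAF hydrolase (log2 -0.65 ± 0.19 SE, adjusted p = 0.00724), and Cyp4f18 (log2 0.65 ± 0.19 SE, adjusted p = 0.00959).

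**Figure D5:**
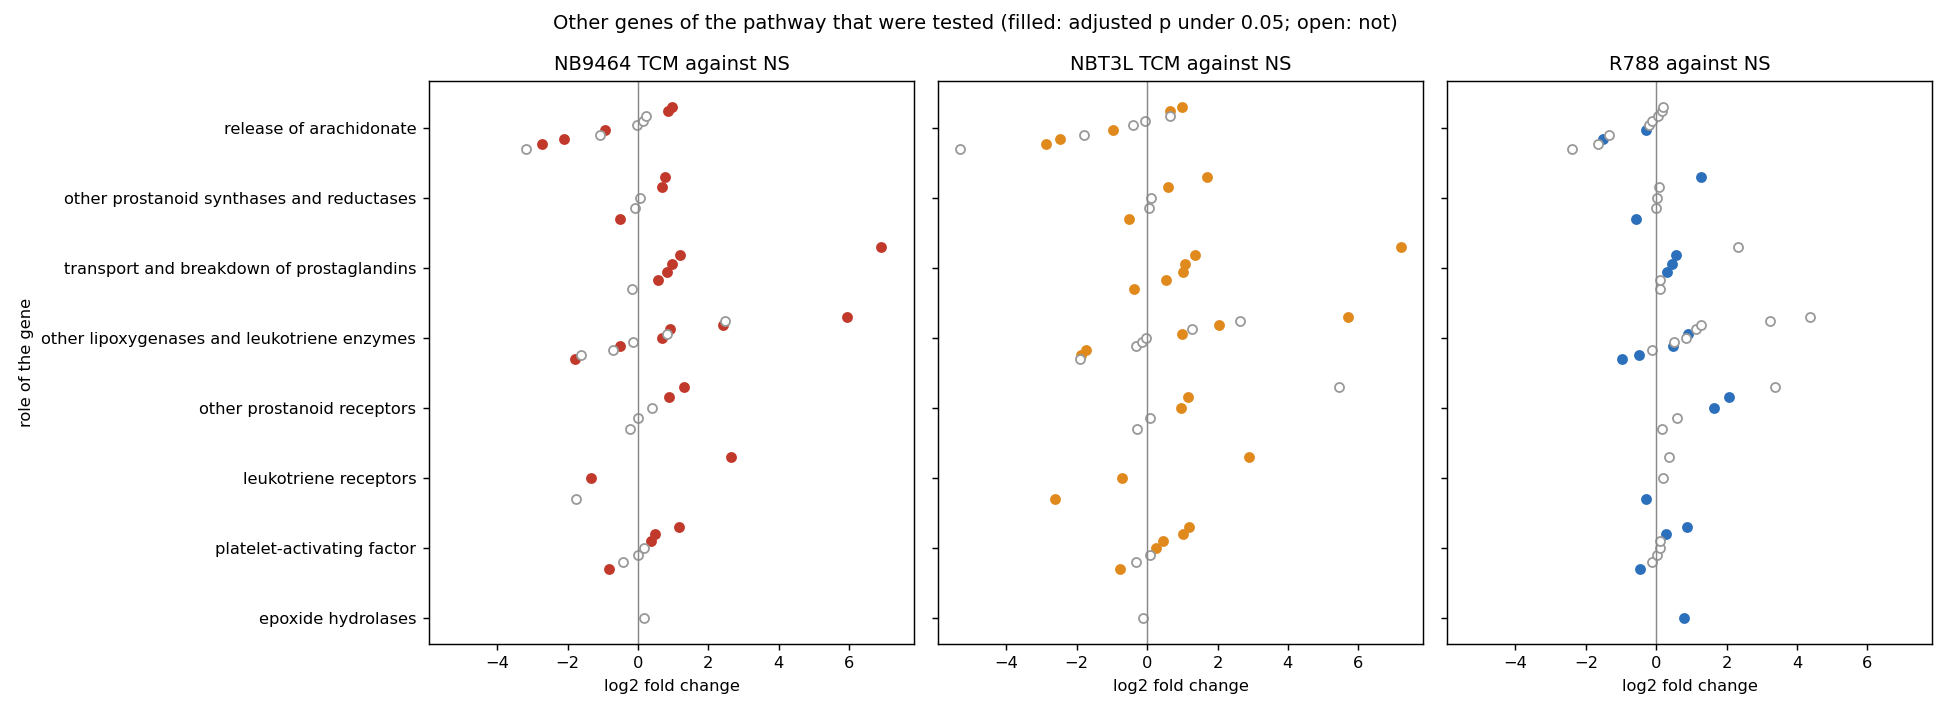
Log2 fold changes of the 48 other genes of the pathway that were tested are plotted by role for each TCM and for R788 against NS, filled where the DESeq2 adjusted p was under 0.05. Genes for transport and breakdown of prostaglandins lie mostly to the right of 0 in both TCM panels, and the points farthest right there, Slco2a1 and Ggt1, had 0 reads in both NS libraries, so their fitted values are no bounds. The same holds for Slco2a1 and Ggt1 in the R788 panel and for Ptgfr, with 0 reads in NS, in the NBT3L TCM and R788 panels. It holds also for Pla2g4b, with 0 reads in NBT3L TCM.

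Genes whose levels ran most alike over the 12 libraries were looked up for each member by Pearson's r of log2(normalized count + 1) over the 10710 genes whose mean reached 100 normalized counts. For Ptges they were Pilra (r = 0.999), Pilrb1 (r = 0.998) and Cxcl2 (r = 0.998), and for Ptgs2 Prdx1 (r = 0.995), Glis3 (r = 0.992) and Alas1 (r = 0.991). Alox5 ran with Lmo2 (r = 0.989), Igfbp4 (r = 0.988) and Entpd1 (r = 0.984), Ptgs1 with Rfx1 (r = 0.979), Adamts10 (r = 0.971) and Eepd1 (r = 0.971), and Pla2g7 with Ppp1r12b (r = 0.994), Susd6 (r = 0.990) and Fam43a (r = 0.990). The 12 points are 6 pairs of replicates in which TCM moves many genes, so values of this size are a description of shared group differences and were not tested.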

How the data were processed

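RNA was sequenced from 12 libraries of mouse BMDMs in 6 groups of 2, taken from the labels. The authors deposited raw counts of reads per gene, in whole numbers, with gene lengths. The submitters' processing notes name STAR 2.6.1d, Salmon 1.4.0, SAMtools 1.9, Picard 2.26 and MultiQC 1.11, and the study's methods state alignment to mm10 with STAR and quantification by Salmon in a bcbio pipeline. The deposited counts are whole numbers beside a gene length, and the use of strand is not given in the sources used here. The labels call the reads paired, the study's methods single. Among genes with 1 to 40 counts, between 65.2% (SJ8) and 67.9% (SJ12) had an even count. Whether both mates of a pair were counted is not stated and was not tested. If they were, a low count stands for fewer fragments, and the errors given for genes with few reads are too small. That the 2 libraries of a group came from separate animals or cultures is not stated, so p-values measure the spread between these libraries, which may be technical.

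Ensembl identifiers were matched to symbols and positions in GENCODE M21 (54165 of 54232). The 16281 genes that reached 10 counts in 2 or more libraries entered DESeq2 1.42.0 (R 4.3.3), which scaled by median of ratios and fitted the means of the 6 groups together, using all 12 libraries. Contrasts were tested by Wald's test without shrinkage of the log2 fold change, p-values were adjusted by Benjamini-Hochberg over all genes of a contrast, and a gene was called at an adjusted p under 0.05. The method was tested on data simulated from the fitted DESeq2 model, with changes set only in genes with a mean of at least 100 normalized counts. Changes in genes with fewer reads, such as Ltc4s and Hpgd, were therefore not covered. Normalized counts are counts divided by the DESeq2 size factor. Bounds against a group with 0 reads use 3 counts per library. They cover only the counting error of that group, not that of the group it is compared with. Alternatives were edgeR 4.0.16 (quasi-likelihood, TMM), TMM scaling in DESeq2, no filter, a mean of at least 50 counts, halved counts, a fit of only the groups compared, a minimum change of 2-fold, and leaving out each library.

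The members and gene lists were chosen with earlier results of these data known. Named genes of the pathway list were, per comparison of 2 groups, up to 4 called genes with the largest change and a mean of at least 100 normalized counts. Promoter windows matched 9 of the 10 members, all but Alox5ap.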

Additional observations from a re-analysis of the deposited data

Results flagged for a closer look

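The R788 effect differed between media for several members by the interaction contrasts of DESeq2, each a difference of 2 log2 fold changes. Against the effect without TCM, the effect in NB9464 TCM was lower by 1.04 for Ptgs1 (-1.04, adjusted p = 0.00704), and the differences were -0.64 for Ptges (adjusted p = 4.87e-08), -0.29 for Hpgds (adjusted p = 0.0187), -1.07 for Alox5 (adjusted p = 5.15e-08) and -0.64 for Pla2g7 (adjusted p = 1.52e-17). In NBT3L TCM the differences were -1.45 for Ptgs1 (adjusted p = 6.85e-05), -0.98 for Ptges (adjusted p = 1.07e-18), -5.99 for Hpgd (adjusted p = 0.0051), -0.89 for Alox5 (adjusted p = 1.59e-05) and -0.96 for Pla2g7 (adjusted p = 2.61e-40). The value for Hpgd is no bound, since NBT3L TCM + R788 had 0 reads. Between NB9464 TCM and NBT3L TCM the effects differed by 0.34 for Ptges (adjusted p = 0.0116), -0.34 for Hpgds (adjusted p = 0.0436) and 0.33 for Pla2g7 (adjusted p = 0.00119), and edgeR called none of these 3. Groups of 2 libraries were not examined for outlying libraries.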

How the results depend on the processing

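Of 51 calls of members over 10 contrasts, 34 held under every alternative other than a minimum change of 2-fold. Of 1844 recomputed values of single members, 1708 kept direction and call, 99 lost the call (28 against the 2-fold minimum, 59 without 1 library, 12 otherwise), 12 gained it and 25 changed sign, all of these without 1 library and with no call in either fit. Where a library was left out, the lone library of its group was assumed to vary like the other groups. The causes were not tested. No paired analysis was possible because the groups share no replicate numbers. With 2 libraries per group, small changes and genes with few reads, such as Ltc4s and Hpgd, are the least secure.

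For the R788 effect in NB9464 TCM against NBT3L TCM, edgeR called 0 members where DESeq2 called 3, with 0 to 3 without 1 library, and a fit of only these groups called 1 pathway gene where DESeq2 over all groups called 0. Against the 2-fold minimum, pathway genes called were 11 for NB9464 TCM and 16 for NBT3L TCM against NS. For R788 against NS they were 4, with 2 members. For R788 in NB9464 TCM there were 0 members and 0 pathway genes, in NBT3L TCM 2 and 1, between the TCM 1 and 1, and between the TCM with R788 1 and 2. For the R788 effect in NB9464 TCM against no TCM there were 2 and 5, in NBT3L TCM against no TCM 2 and 4, and between the TCM 0 members. Of all 16281 genes, the 2-fold minimum left 1860 for NB9464 TCM, 1957 for NBT3L TCM and 806 for R788 against NS. It left 343 for R788 in NB9464 TCM, 314 in NBT3L TCM, 181 between the TCM and 294 between the TCM with R788. For the R788 effects compared in this order it left 383, 288 and 22. Without 1 library, pathway genes called were 4 to 13 for R788 in NB9464 TCM, 4 to 13 for R788 in NBT3L TCM, 4 to 8 between the TCM, 4 to 13 between the TCM with R788, and 7 to 14 for the R788 effect in NBT3L TCM against no TCM. Members called were 2 to 5 for R788 in NBT3L TCM, 3 to 6 between the TCM with R788 and 3 to 5 for the R788 effect in NB9464 TCM against no TCM.

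Log2 values that changed sign without 1 library had these ranges. With R788 in NB9464 TCM, Alox5ap ran from -0.0654 to 0.15, Hpgd from -0.61 to 4.20, Alox5 from -0.15 to 0.0725 and Ltc4s from -0.86 to 0.39. With R788 in NBT3L TCM, Ptger4 ran from -0.0621 to 0.0395. Between the TCM, Alox5 ran from -0.16 to 0.10, and with R788 Ltc4s from -0.92 to 0.24. In the interaction of R788 with NB9464 TCM, Ptgs2 ran from -0.87 to 0.0254, Ptger4 from -0.0894 to 0.29, Hpgd from -1.68 to 3.13 and Alox5ap from -0.21 to 0.00908. In that with NBT3L TCM, Alox5ap ran from -0.12 to 0.0323 and Ltc4s from -0.0847 to 0.46, and between the TCM Alox5ap from -0.16 to 0.0569.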
